A study of Mus musculus with 5 samples.

Results

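The Wnt pathway genes described here are the ligands, receptors, secreted inhibitors, transducers, nuclear factors and feedback genes whose symbols were matched by name in the deposited table, and their levels were compared between neural stem/progenitor cell (NSPC) cultures labelled WT and p75NTR-/-. Of 12588 gene sums, where a gene sum is the total of the normalized counts of all listed transcripts of a symbol, 46 were members. They comprised 6 ligands, 15 receptors and co-receptors, 3 secreted inhibitors, 10 transducers, 7 nuclear factors and 5 genes of feedback, secretion or cell polarity. No values of Lef1, Rnf43 or a Dkk gene were analysed here. The mean gene sum over the libraries was at least 50 normalized counts for 38 members and lower for the other 8.

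Wnt proteins are secreted, lipid-modified signals that bind Frizzled receptors at the surface of a neighbouring cell. In the canonical branch, binding together with the co-receptor Lrp5 or Lrp6 recruits Dishevelled, halts the complex of Axin, Apc, Gsk3 and casein kinase that marks β-catenin for degradation, and lets β-catenin act with Tcf and Lef factors on its target genes, where Tle proteins otherwise repress. Other branches pass through Ror and Ryk receptors or the planar polarity proteins Vangl1 and Vangl2 and act on cell shape and movement, and in the subventricular zone of the adult brain the pathway is known for its part in keeping and expanding neural stem cells.

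RNA sequencing (RNA-Seq) covered 5 libraries of untreated NSPC cultures, 2 labelled WT (p75NTR+/+, replicates 1 and 4) and 3 labelled p75NTR-/- (replicates 1, 2 and 4), all from C57BL/6J mice. The labels describe cells of E12.5 embryos, while the study's methods describe adult cells from the subventricular zone, and nothing in the values decides between them. All cultures were kept proliferating with FGF-2 and EGF, each at 20 ng/ml, the WT mice were littermates of the p75NTR-/- mice, and the replicates were described as independent preparations. By the label p75NTR-/-, the deletion would be constitutive and present in every cell of those cultures, so it would not be limited to stem cells.

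The gene sum of Ngfr, which encodes p75NTR, was 0.98 and 2.08 normalized counts in WT 1 and WT 4 and 9.89, 141 and 251 in p75NTR-/- 1, 2 and 4. The levels therefore ran against the labels, with the lower values in the libraries labelled WT. In the mouse line cited in the methods an exon of the gene is disrupted. A gene sum does not separate that exon from the others, so the sum does not settle which label is right. The cause of the low Ngfr values in the libraries labelled WT was not tested. All libraries below are named by their labels only, and each direction given between the labels carries this limit.

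Depth was similar between the libraries, with 11688211 to 14452396 recovered counts each, so that a count of 0 allows up to 2.94 to 3.60 normalized counts. Across the 10786 gene sums with a mean of at least 50, the libraries numbered 4 resembled each other more (Pearson's r across genes of 0.992 for WT 4 and p75NTR-/- 4) than WT 1 resembled WT 4 (r = 0.931). Genes are not independent replicates, and these values only describe the libraries. Of 9 neural progenitor markers all 9 were measured, with summed levels of 95911 to 122831 normalized counts. Fabp7 (35613 to 39744) and Vim (20556 to 44562) were the highest of them. Single markers varied more than the sum, with Hes5 from 25.0 to 546 and Nes from 8704 to 23123. Of 5 neuron markers 3 were measured. Map2 (5401 to 9156) was lower in both libraries numbered 4, Neurod1 (9.61 to 19.8) was higher, and Tubb3 (184 to 274) overlapped. No microglia marker was analysed here, and of the endothelial markers only Kdr was, at 37.5 to 62.3 normalized counts. The astrocyte marker Gfap was at 680 and 746 normalized counts in the libraries numbered 4, at 241 in WT 1 and at 11.9 or less in p75NTR-/- 1 and 2. S100b, also an astrocyte marker, did not share this order, at 1421 in WT 1 and 347 to 475 elsewhere. Values are therefore also given within each number and without number 4.

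On the length-corrected TPM scale, the members spanned from 0.18 ± 0.08 (SD, n = 5) for the ligand gene Wnt9a to 473 ± 81.8 (SD, n = 5) for Ctnnb1, which encodes β-catenin. After Ctnnb1 came Csnk1a1, the casein kinase that primes β-catenin for degradation, at 194 ± 21.6 TPM, below every library's value of Ctnnb1. Ryk, a receptor that binds Wnt proteins outside the Frizzled family, was next at 71.6 ± 2.54 TPM, with a range of 69.6 to 75.7 over the libraries. Of the 6 ligands, Wnt7b (49.0 ± 13.1 TPM) and Wnt5a (38.2 ± 9.20 TPM) were highest, and their ranges over the libraries overlapped. Wnt7a followed at 14.0 ± 1.62 TPM, below every library of the former pair, and Wnt5b, Wnt4 and Wnt9a stayed at or below 3.05 TPM in every library. Among the 10 Frizzled genes the order of mean TPM was Fzd3, Fzd1, Fzd10, Fzd9, Fzd7, Fzd2, Fzd5, Fzd4, Fzd8 and Fzd6, from 23.0 ± 6.32 to 0.75 ± 0.59, and neighbours in that order overlapped over the libraries except Fzd2 with Fzd5 and Fzd8 with Fzd6. The summed TPM of the 10 Frizzled genes lay between 72.7 and 79.2 in the 5 libraries, while single genes such as Fzd10 ranged from 4.75 to 14.4. In bulk libraries, fewer cells of a type and less RNA per cell cannot be told apart.

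**Figure D1:**
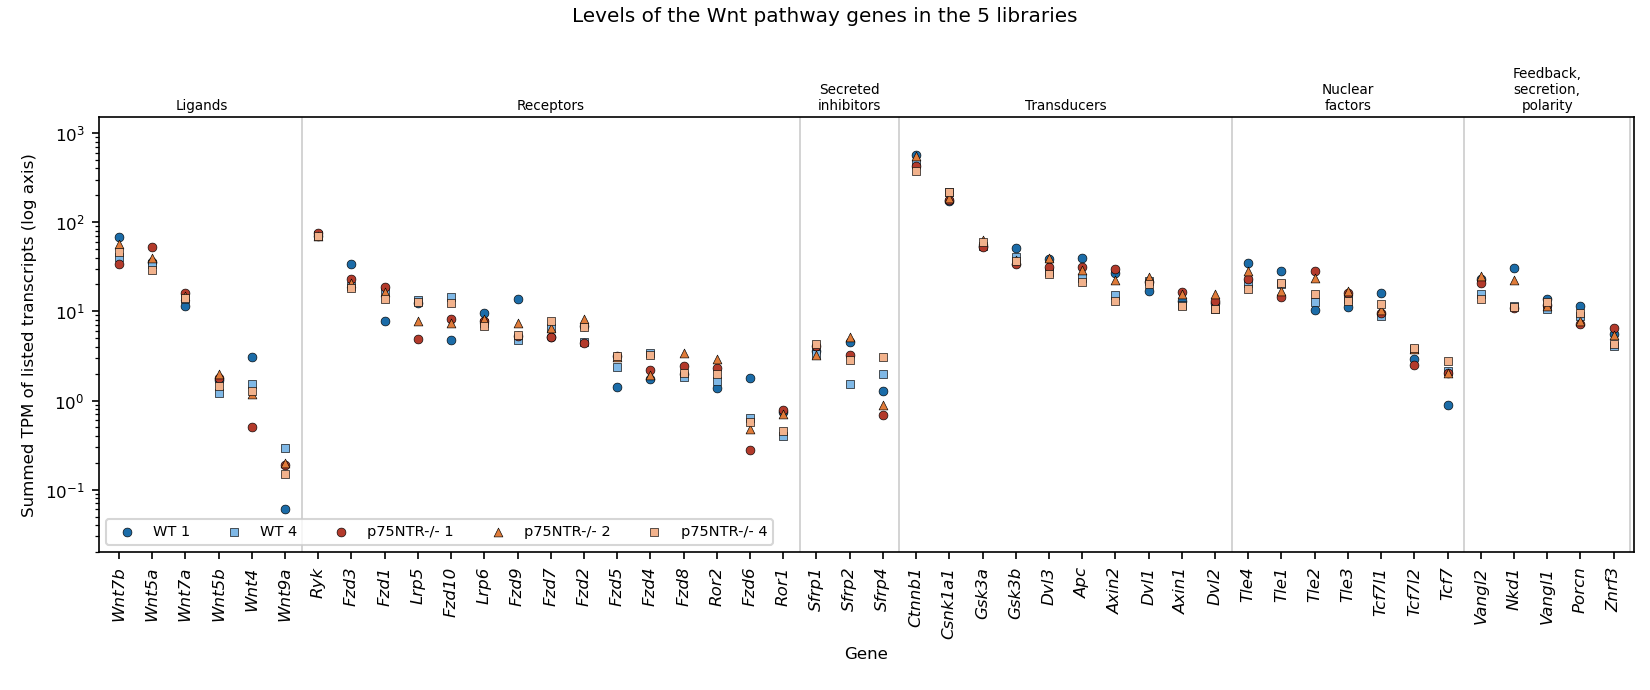
Summed TPM of the listed transcripts of each Wnt pathway gene (log axis) in the 5 libraries, grouped by role and ordered by mean within a role; each point is 1 library. Ctnnb1 lies above every other gene, Ryk is nearly level over the libraries, and Wnt4, Fzd6 and Nkd1 are highest in WT 1.

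The comparison between the labels asks whether Wnt pathway genes differ between the cultures labelled WT and p75NTR-/-. With limma on log2(gene sum + 1) over all 12588 gene sums, 0 of 46 members were called, against 0.00794% of all gene sums (1 gene). A call required an adjusted p under 0.05 (Benjamini-Hochberg), a 1.5-fold difference or more and a mean gene sum of 50 or more. The smallest adjusted p of a member was 0.934. At an unadjusted p under 0.05 there were 2 members, Ror2 and Fzd5, in limma, against 2.08% of all gene sums. DESeq2 gave 0 members at an adjusted and 2 at an unadjusted p under 0.05, and edgeR 0 and 1 of the 45 members it tested. How many of all gene sums passed these limits in DESeq2 and edgeR was not counted. The log2 fold change (p75NTR-/- minus WT) was above 0 for 25 members and below 0 for 21, with a median of 0.08, against 0.0039 over all gene sums. In 9 of 46 members (19.6%) no library of one label overlapped the other label, against 15.0% of all gene sums. The p75NTR-/- libraries were the higher ones for Wnt7a, Fzd5, Fzd8, Ror2 and Tle3 (7.52% of all gene sums were higher in this way) and the lower ones for Wnt4, Fzd6, Gsk3b and Vangl1 (7.53%). The limma and overlap counts lie near those over all genes.

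**Figure D2:**
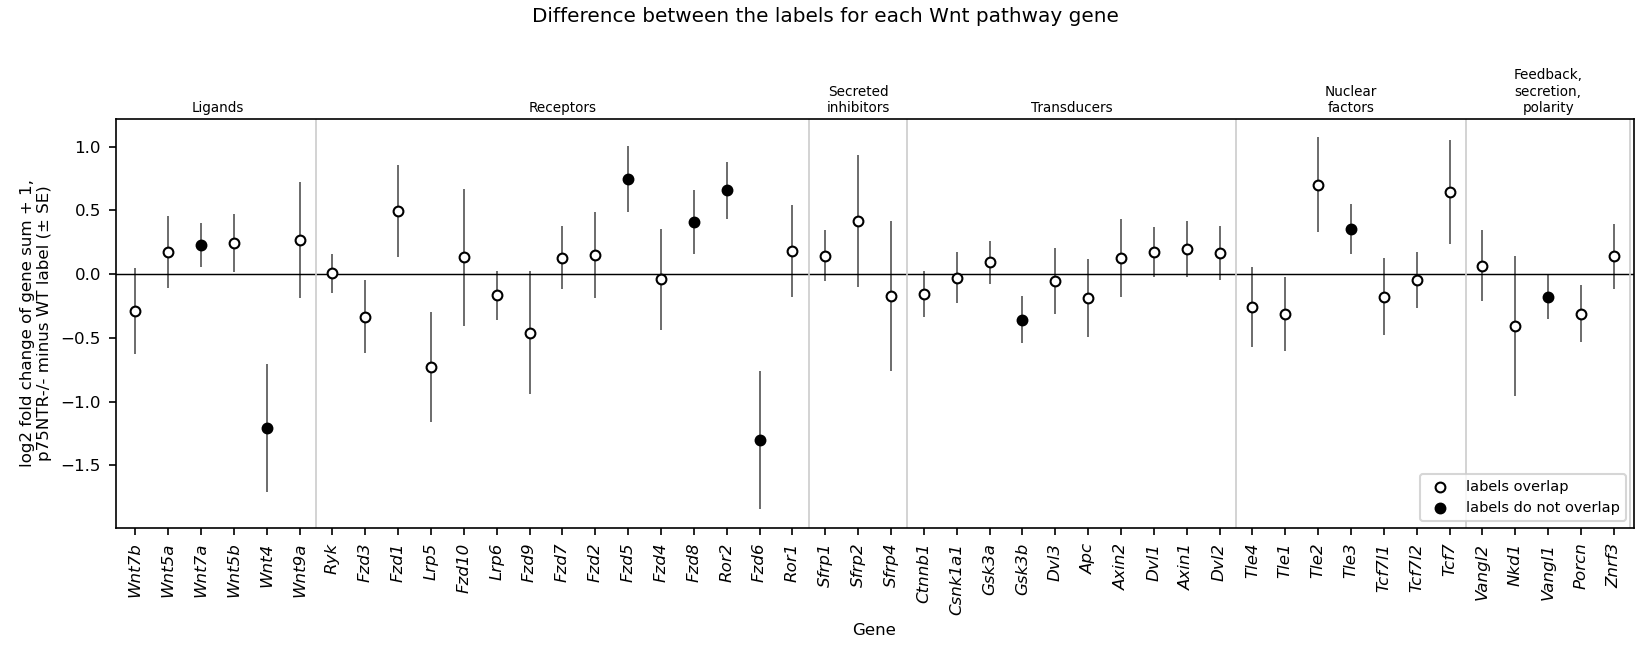
Log2 fold change of each gene between the labels (p75NTR-/- minus WT, on log2(gene sum + 1), with the limma SE as bars), ordered as in the plot of levels; filled points are the 9 genes whose labels do not overlap. The widest differences, Wnt4 and Fzd6, belong to genes with a mean under 50, and no gene passes the adjusted threshold.

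Among the ligands, Wnt7a was the only one with a mean of at least 50 whose labels did not overlap. Wnt7a, a ligand known from the developing forebrain, stood at 219.8 and 259 normalized counts in WT 1 and WT 4 and at 299, 274 and 266 in p75NTR-/- 1, 2 and 4. WT 1 was the lowest library and the other 4 lay close together, and the log2 fold change was 0.23 ± 0.17 (SE; limma adjusted p = 0.934). Wnt5a, which often acts through Ror and Ryk receptors, measured 726 and 679 in the WT libraries and 1066, 778 and 597 in the p75NTR-/- libraries. Its highest and lowest values both carried the p75NTR-/- label, so the labels overlapped (0.17 ± 0.28 log2). Wnt4 was at 54.0 and 27.1 in WT 1 and WT 4 and at 8.91, 20.4 and 22.2 in the p75NTR-/- libraries. The log2 difference of Wnt4 was -2.47 within number 1 and -0.27 within number 4, so most of the pooled difference (-1.21 ± 0.50; limma adjusted p = 0.934) lay in WT 1 and p75NTR-/- 1. Wnt5b ranged from 21.9 to 33.6 normalized counts, and Wnt9a from 0.98 to 4.16, near the limit that a count of 0 allows.

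Wnt7b, the most abundant ligand gene, had gene sums of 1058 and 641 in WT 1 and WT 4 and of 505, 860.2 and 705 in p75NTR-/- 1, 2 and 4. WT 1 was highest and p75NTR-/- 1 lowest, the remaining 3 lay between them, and the log2 fold change was -0.29 ± 0.34 (SE; limma adjusted p = 0.934). The gene lies on the minus strand of chromosome 15, and its 4 listed transcripts (GRCm38, GENCODE models) share exon 3 and the coding part of exon 4, but most begin at different first exons. ENSMUST00000229495 begins at chr15:85582276-85582473, a noncoding exon of 198 bases found in no other listed transcript, and its coding sequence starts in exon 2. ENSMUST00000023015 (chr15:85581380-85581821) and ENSMUST00000109424 (chr15:85581380-85581582) have overlapping first exons, and ENSMUST00000229191 begins further downstream at chr15:85577508-85578070. The junctions below are shown because they are the pieces of sequence that tell these transcripts apart, and are printed on the transcript strand with the upstream exon in capitals and the downstream exon in lower case.
ENSMUST00000229495, exon 1 to exon 2: CCTGGAAGCACCCACagcattgtcatccgt
ENSMUST00000229191, exon 1 to exon 2: CAGCGGCAGTTACCTagcattgtcatccgt
ENSMUST00000023015 and ENSMUST00000109424, exon 1 to exon 2: CTACGTGAAGCTCGGagcattgtcatccgt
ENSMUST00000023015, exon 2 to exon 3: GGGCAAGAACTCCGAggagtcgagaggctg
ENSMUST00000229495, ENSMUST00000229191 and ENSMUST00000109424, exon 2 to exon 3: AAGAACTCCGAGTAGggagtcgagaggctg

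The start of exon 2 (chr15:85558903-85559129) was common to all, whereas its end was 4 bases shorter in ENSMUST00000023015 (chr15:85558907-85559129), which sets its second junction apart. Over the 90 listed transcripts of the members, limma called 0, against 0.0135% of all 22227 transcripts, and 3 had an unadjusted p under 0.05, against 3.14%. DESeq2 gave 1 member transcript an adjusted p under 0.05, against 0.389% of those it tested. In edgeR 0 passed an adjusted and 3 an unadjusted p under 0.05, and the shares over all transcripts were not counted. The transcript past the limit in DESeq2 was ENSMUST00000229495, which is named after its values were seen. It had 1 and 0 recovered counts in WT 1 and WT 4 and 80, 13 and 116 in p75NTR-/- 1, 2 and 4. The labels did not overlap, with each p75NTR-/- library above the limit that a count of 0 allows. Summed over the libraries of a label this gave 1 against 209 counts, a ratio of normalized means of 148 with an exact 95% interval of 26.3 to 5888 that covers counting error only. The adjusted p was 0.028 in DESeq2 and 0.731 in limma (log2 fold change 5.28 ± 1.00, SE), and its mean of 43.7 normalized counts was under the minimum of 50. The transcript made up 15.7% and 17.4% of the Wnt7b gene sum in p75NTR-/- 1 and 4 but 1.82% in p75NTR-/- 2.

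The other Wnt7b transcripts followed other orders. ENSMUST00000229191 was the most abundant, at 699 and 450.4 in WT 1 and WT 4 and 245, 611 and 358 in the p75NTR-/- libraries, and the labels overlapped. ENSMUST00000023015 had 235 and 190.4 against 141, 145 and 224, also with overlap. ENSMUST00000109424 was at 0 counts in WT 4 and p75NTR-/- 4 and at 124, 38.6 and 87.7 in WT 1, p75NTR-/- 1 and p75NTR-/- 2, so it separated by replicate number and not by label. These transcript values rest on how Salmon divides reads between transcripts that share most of their sequence, and the effect of that division was not tested.

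**Figure D3:**
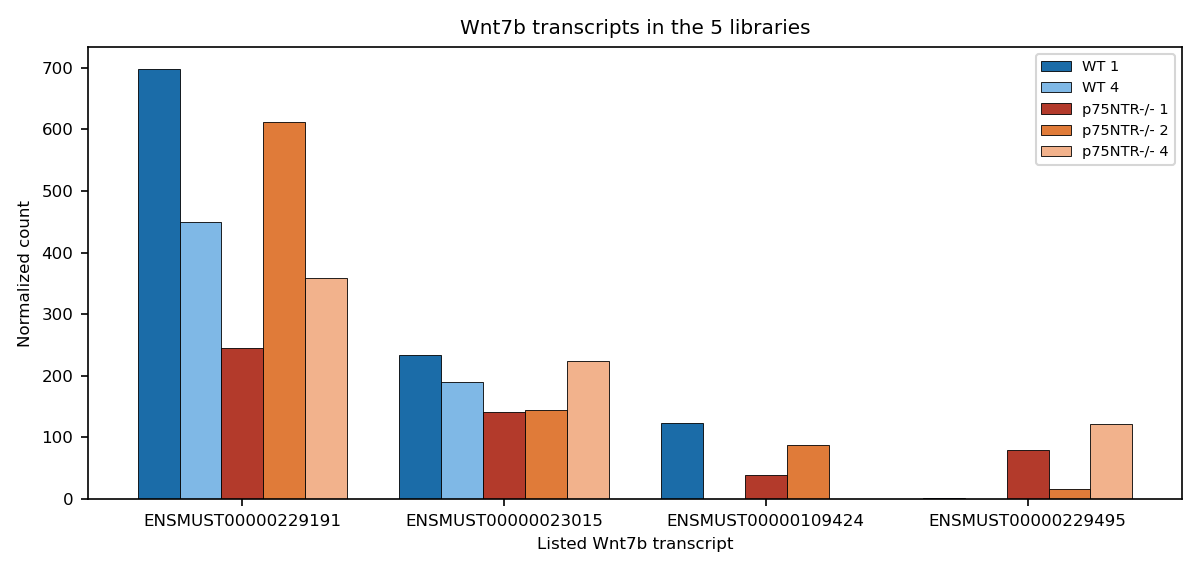
Normalized counts of the 4 listed Wnt7b transcripts in the 5 libraries (bars, 1 per library). ENSMUST00000229495 is at or near 0 in both libraries labelled WT, and ENSMUST00000109424 is at 0 in both libraries numbered 4.

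The receptors held the members nearest to the threshold. Ror2, a receptor tyrosine kinase that binds Wnt5a, stood at 71.6 and 84.3 normalized counts in the WT libraries and at 119, 150.2 and 105 in p75NTR-/- 1, 2 and 4. Every p75NTR-/- library was above both WT libraries, and the log2 fold change was 0.66 ± 0.22 (SE), at an unadjusted p of 0.031 and a limma adjusted p of 0.934. The log2 difference of Ror2 was 0.72 within number 1, 0.31 within number 4, and 0.89 between WT 1 and the mean of p75NTR-/- 1 and 2. The Ror2 value of WT 4 came entirely from the transcript ENSMUST00000130235, which was at 0 in all other libraries. In those libraries it came entirely from ENSMUST00000021918, which was at 0 in WT 4. The effect of how Salmon divides reads between these transcripts was not tested. Fzd5, a Frizzled of the canonical branch, was at 39.3 and 65.5 in WT 1 and WT 4 and at 86.1, 82.9 and 88.7 in the p75NTR-/- libraries. Here the p75NTR-/- libraries lay close together and WT 1 lowest, with a log2 fold change of 0.75 ± 0.26 (SE; unadjusted p 0.033, limma adjusted p = 0.934) and differences of 1.11 within number 1 and 0.43 within number 4. Fzd8 measured 53.0 and 48.9 against 64.3, 88.9 and 54.9, without overlap but with WT 1 and p75NTR-/- 4 almost level (0.41 ± 0.25 log2). Fzd6 had 85.4 and 31.2 in the WT libraries and 12.9, 22.8 and 28.5 in the p75NTR-/- libraries, a log2 difference of -2.64 within number 1 and of -0.13 within number 4.

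Lrp5, a co-receptor of the canonical branch, was at 1285 and 1391 in WT 1 and WT 4 and at 501, 794 and 1326 in p75NTR-/- 1, 2 and 4. It was low in p75NTR-/- 1 and 2 alone, the libraries numbered 4 were level (-0.07 log2), and the pooled log2 fold change was -0.73 ± 0.43 (SE; limma adjusted p = 0.934). Its relative Lrp6 differed less, from 797 to 1116 normalized counts, with the highest value in WT 1. Fzd10 was at 161 and 484 in the WT libraries and at 270.1, 247 and 427 in the p75NTR-/- libraries, higher in both libraries numbered 4 than in the other 3. Fzd4, which also binds the ligand Norrin, had the same order, at 58.9 and 117 against 73.2, 63.7 and 112. Fzd9 was highest in WT 1 (389), with 135 in WT 4 and 146, 203 and 155 in the p75NTR-/- libraries. Fzd3, the most abundant Frizzled and known for its part in axon guidance, was likewise highest in WT 1, at 1545, against 882 in WT 4 and 1029, 920.2 and 839 in the p75NTR-/- libraries. Fzd1 went the other way, at 236 in WT 1 and at 418 to 550.1 in the other 4 libraries. Ryk held between 2594 and 2840 normalized counts, and its log2 fold change was 0.01 ± 0.15 (SE).

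The secreted inhibitors bind Wnt proteins outside the cell, and all 3 members were low. Sfrp1 was at 55.0 and 52.0 in the WT libraries and at 62.3, 49.3 and 67.6 in the p75NTR-/- libraries, with overlap and a log2 fold change of 0.14 ± 0.20 (SE). Sfrp2 stood at 63.8 and 21.9 against 44.5, 70.9 and 40.1, lowest in the libraries numbered 4. Sfrp4 ranged from 9.90 to 41.2 and was highest in p75NTR-/- 4. For these genes the spread within a label was as large as the difference between the labels.

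Of the transducers, only Gsk3b separated the labels. Gsk3b, a kinase of the β-catenin destruction complex, was at 1413 and 1111 in WT 1 and WT 4 and at 921, 1012 and 1002 in p75NTR-/- 1, 2 and 4. Both WT libraries were above all p75NTR-/- libraries, WT 1 by the wider margin, and the log2 fold change was -0.36 ± 0.18 (SE; limma adjusted p = 0.934), with -0.62 within number 1 and -0.15 within number 4. Its close relative Gsk3a was at 1388 to 1639 in all libraries with a log2 fold change of 0.09 ± 0.17 (SE). Ctnnb1 was at 23178 and 18632 in the WT libraries and at 18791, 19581 and 17548 in the p75NTR-/- libraries, highest in WT 1 and lowest in p75NTR-/- 4, with overlap (-0.16 ± 0.18 log2). Csnk1a1 was at 3621 and 4519.9 against 3653, 3779 and 4516, level between the labels within each number and higher in number 4.

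The scaffolds of the destruction complex were lower in the libraries numbered 4 than in the other 3. Apc was at 8204 and 4872 in WT 1 and WT 4 and at 6408, 5999.6 and 4465 in the p75NTR-/- libraries. Axin2, which is itself induced by β-catenin and is used as a readout of the pathway, was at 473 and 399 against 565, 569 and 331. Both were lower in number 4, and the log2 fold changes between the labels were -0.19 ± 0.31 for Apc and 0.12 ± 0.31 for Axin2 (SE). Axin1 spanned 649.7 to 912 and was lowest in p75NTR-/- 4 and WT 4. The 3 Dishevelled genes spanned 613 to 857 for Dvl1, 434 to 621 for Dvl2 and 1037 to 1536 for Dvl3, and their labels overlapped.

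The nuclear factors were led by the Tle co-repressors. Tle3 was at 470.1 and 558 in WT 1 and WT 4 and at 672, 738 and 564 in p75NTR-/- 1, 2 and 4. The labels did not overlap, but WT 4 and p75NTR-/- 4 were almost level (0.02 log2), and the log2 fold change was 0.35 ± 0.20 (SE; limma adjusted p = 0.934). Its transcript ENSMUST00000162583, which has 0 bases outside the other annotated GENCODE transcripts of the gene, was at 132 and 66.6 against 219.7, 281 and 226 normalized counts. All p75NTR-/- libraries were higher for it, with a log2 fold change of 1.35 ± 0.37 (SE; unadjusted p 0.019, limma adjusted p = 0.962). Another Tle3 transcript, ENSMUST00000159050, was at 0 and 111 in WT 1 and WT 4 and at 0, 204 and 19.0 in p75NTR-/- 1, 2 and 4. The effect of how Salmon divides reads between the Tle3 transcripts was not tested. Tle2 was at 257 and 287 in the WT libraries and at 548, 571 and 276 in the p75NTR-/- libraries. It was high in p75NTR-/- 1 and 2 alone (0.70 ± 0.37 log2; 1.09 within number 1 and -0.06 within number 4). The mesenchyme markers, of which 2 of 5 were measured, summed to 260.2 and 202 normalized counts in those libraries and to 83.5 to 89.3 elsewhere. Acta2 carried that sum (249 and 168 against 52.0 to 63.4), whereas Col1a1 was highest in WT 1 (37.3) and lowest in p75NTR-/- 1 (10.9), and the part of either in the Tle2 values was not tested. Tle4 was at 1828 and 1077 against 1183, 1439 and 948, and Tle1 at 858 and 511 against 443, 589 and 577, both highest in WT 1. Of the DNA-binding factors, Tcf7l1, which mostly represses, was also highest in WT 1 (478, against 265 to 362), Tcf7l2 lay between 88.9 and 124, and Tcf7 between 14.7 and 45.4.

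In the last group, Vangl1 and Vangl2 place planar polarity, Nkd1 and Znrf3 dampen the pathway, and Porcn attaches the lipid that Wnt proteins need for secretion. Vangl1 was at 321 and 263.2 in WT 1 and WT 4 and at 248, 259 and 262 in the p75NTR-/- libraries. WT 4 exceeded the highest p75NTR-/- library (262.0) only narrowly, at 263.2, so the separation rests on WT 1 (-0.18 ± 0.17 log2, SE). Vangl2 was at 442 and 293 against 409.6, 436 and 300.0, and both low values were in number 4. Nkd1, which binds Dishevelled, was at 704 and 265 in the WT libraries and at 242, 524 and 273 in the p75NTR-/- libraries. The high values were in WT 1 and p75NTR-/- 2, 1 of each label, and the log2 fold change was -0.41 ± 0.55 (SE). A second Nkd1 transcript, ENSMUST00000169179, had 86.4 and 15.6 normalized counts in the WT libraries, 30.7 in p75NTR-/- 1 and 0 in p75NTR-/- 2 and 4. Porcn ranged from 193 to 310.1 and Znrf3 from 211 to 327.5 normalized counts, each with overlapping labels.

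The libraries numbered 4 were set apart for more members than the labels were. In 22 of 46 members (47.8%) both libraries numbered 4 lay outside the range of the other 3, against 44.4% of all gene sums, so the share was near that of genes at large. They were lower for 15 members (Wnt5a, Wnt5b, Fzd3, Lrp6, Ror1, Sfrp2, Ctnnb1, Apc, Axin1, Axin2, Dvl2, Dvl3, Tle4, Vangl2 and Znrf3), against 21.1% of all gene sums that were lower, and higher for 7 (Fzd4, Fzd7, Fzd10, Lrp5, Csnk1a1, Tcf7 and Tcf7l2), against 23.3%. By role, the lower ones were 6 of 10 transducers, 2 of 6 ligands, 3 of 15 receptors, 1 of 3 secreted inhibitors, 1 of 7 nuclear factors and 2 of 5 genes of feedback, secretion or polarity, and the higher ones 4 of 15 receptors, 1 transducer and 2 nuclear factors. The median log2 ratio of number 4 to the others was -0.16 over the members and 0.01 over all gene sums. The 4 astrocyte markers moved with number 4 in part. Gfap and Aqp4 (696 and 566 in number 4, 69.3 to 395 in the others) were higher there. S100b was not, at 347 and 410 in number 4, 1421 in WT 1 and 475 and 369 in p75NTR-/- 1 and 2. Aldh1l1 overlapped, at 22171 and 25549 in number 4 and 16444 to 23093 in the others. It made up most of the summed level of all 4, which was 23895 to 27271 in number 4 and 16999.8 to 25151 in the others. The part of astrocyte-like cells in the member values was not tested.

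**Figure D4:**
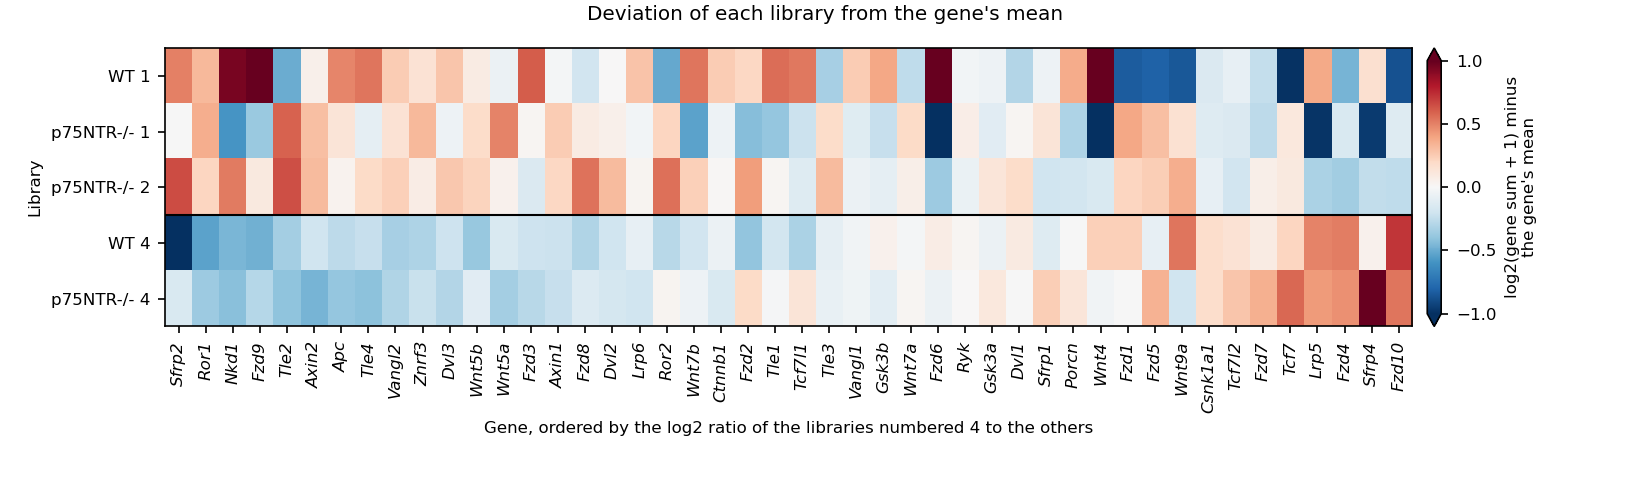
Deviation of log2(gene sum + 1) in each library from the gene's mean over the 5 libraries (colour, log2 units, capped at 1), with genes ordered by the log2 ratio of the libraries numbered 4 to the other 3. WT 4 and p75NTR-/- 4 share the blue left end and the red right end, and Wnt4 and Fzd6 reach the cap in WT 1 (high) and in p75NTR-/- 1 (low).

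The difference between the labels was also uneven between the numbers. Over the members, the median absolute log2 difference was 0.51 between WT 1 and p75NTR-/- 1 and 0.14 between WT 4 and p75NTR-/- 4. For the 10786 gene sums with a mean of at least 50 these medians were 0.35 and 0.09, so the difference was wider within number 1 in both sets. The member medians here and below also cover the 8 members with a lower mean, so their size is not compared with that of these gene sums. Within the WT label, replicates 1 and 4 differed by a median of 0.42 over the members (0.33 over those gene sums). Within the p75NTR-/- label, replicate 4 differed from replicates 1 and 2 by 0.35 and 0.38 (0.28 for both), and replicates 1 and 2 from each other by 0.17 (0.15). Of the 38 members with a mean of at least 50, 16 were over 1.5-fold apart within number 1 and 0 within number 4, where the widest was Fzd2, the receptor gene, at 0.58 log2. The share of all gene sums over 1.5-fold apart was not counted, so these counts are not read as particular to the members. Without the libraries numbered 4, which leaves WT 1 as the lone WT library, WT 1 lay outside the range of p75NTR-/- 1 and 2 for 38 of 46 members, against 83.4% of all gene sums. In that limma fit 14 of 46 members had an unadjusted p under 0.05, against 25.9% of all gene sums, and 0 were called. The spread in it comes from p75NTR-/- 1 and 2 alone, with WT 1 assumed to vary like them, so its p-values set WT 1 against that pair and do not measure a difference between the labels. WT 1 was the highest library for 17 members (37.0%) and the lowest for 12 (26.1%), against 28.2% and 31.5% of all gene sums. The oligodendrocyte lineage markers, of which 2 of 5 were measured, summed to 293 normalized counts in WT 1 and to 62.3 to 111 in the other libraries, and their part in the member values was not tested.

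**Figure D5:**
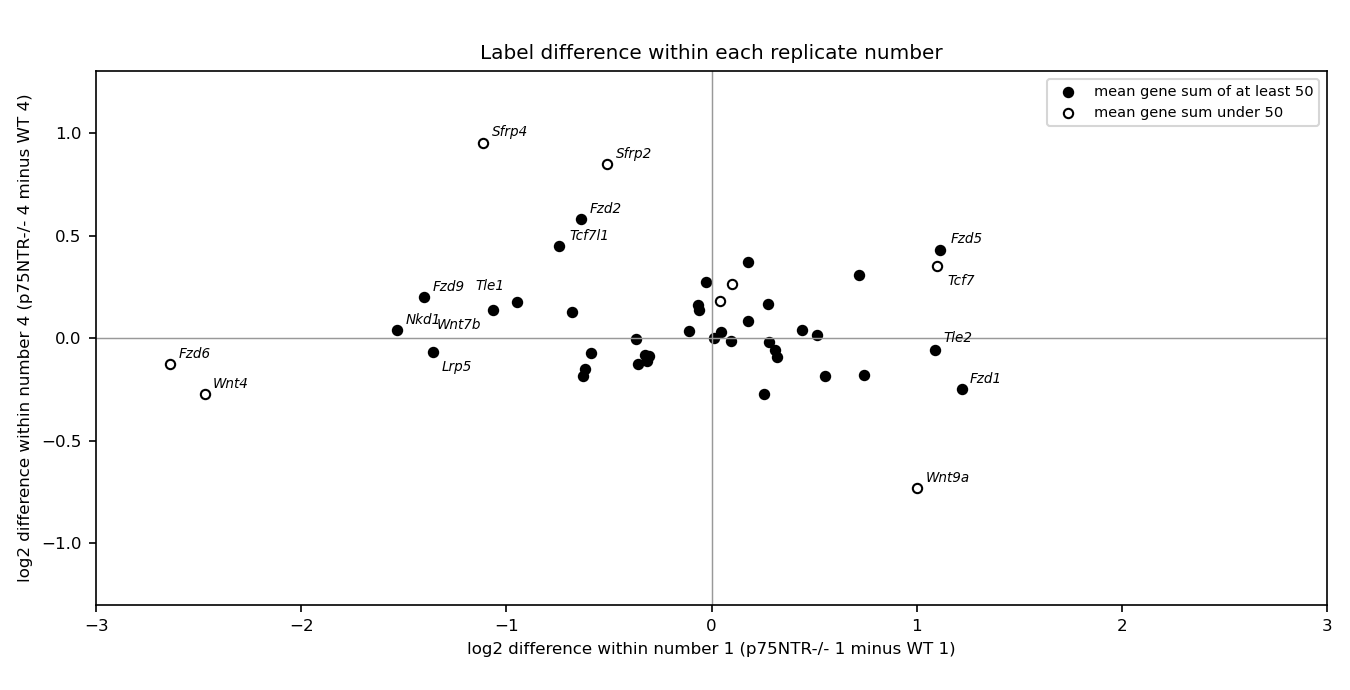
Log2 difference between the labels within number 1 (x axis, p75NTR-/- 1 minus WT 1) and within number 4 (y axis, p75NTR-/- 4 minus WT 4) for each member, with open points for means under 50. Points range from -2.64 (Fzd6) to above 1 (Fzd1 is highest) on the x axis and from -0.73 (Wnt9a) to 0.95 (Sfrp4) on the y axis, and Sfrp4, Sfrp2 and Fzd2 are below 0 on the former and above 0 on the latter.

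Of 43 other pathway genes, 33 were measured. The labels did not overlap for 3 that were higher and 2 that were lower in p75NTR-/-, against 7.52% and 7.53% of all gene sums. Calls numbered 0 (0.00794% of all gene sums), and 1 gene had an unadjusted limma p under 0.05 (2.08%). That was Prickle1, a planar polarity gene, at 47.1 and 66.6 in WT 1 and WT 4 and 82.1, 81.7 and 107.8 in the p75NTR-/- libraries (0.67 ± 0.24 log2, SE; limma adjusted p = 0.934), all 3 above both WT libraries. Its relative Prickle2 had 236.5 and 191 against 139.5, 115 and 170.1, and the p75NTR-/- libraries were the lower ones (-0.60 ± 0.23 log2; limma adjusted p = 0.934). Wls, which carries Wnt proteins to the cell surface, was at 3414 and 3340.5 in the libraries numbered 4 and at 5209 to 7185 in the others. Celsr1, a polarity cadherin, stood at 2273 in WT 1 and at 340.2 to 668 elsewhere. Of 13 genes known to respond to β-catenin in many tissues, 12 were measured, 0 were called, 0 had an unadjusted p under 0.05, and the median log2 fold change was -0.01. Among them Ccnd1, the cyclin D1 gene, was at 2250.2 in WT 1 and at 8336 to 9953 in the other 4 libraries, and Myc was at 452 in WT 1 and at 975 to 1667 elsewhere. The labels did not overlap for 2 of the 12 that were higher and 1 that was lower in p75NTR-/-, against 7.52% and 7.53% of all gene sums. In both libraries numbered 4, 5 of the 12 were higher and 0 lower, against 23.3% and 21.1% of all gene sums. The 5 were Jun, at 1939 and 2206 (564 to 806 elsewhere), Cd44, Ppard, Mycn and Notum. Mycn and Notum stayed at or below 27.05. The member Axin2 was lower in number 4, at 399 and 331 (473 to 569 elsewhere).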

How the data were processed

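RNA-Seq was performed on 5 NSPC libraries. Per the labels and methods, stranded mRNA libraries were made from 500 ng RNA and checked with FastQC, and reads were quantified with Salmon 0.10.2 against the Ensembl transcriptome of GRCm38.p6 (mm10), imported with tximport and normalized with DESeq2 1.22.0 in R 3.6.1 by the authors. The deposited signal of a library is a count divided by its size factor, plus 0.5. After 0.5 was subtracted, 100% of values were whole multiples of a single step (within 0.1 counts), which gave the recovered counts used for edgeR and DESeq2. The deposited TPM (transcripts per length, scaled to a common total) is treated as a score, used for levels only, and the deposited baseMean, another score, was not used. The authors' log2 fold change and p-value columns hold their own DESeq2 comparison and were not used either.

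The table has 22530 lines for 22227 transcripts, and 303 repeated lines were dropped. Members were chosen by symbol, and normalized counts were summed per symbol (12588 gene sums). limma 3.58.1 (lmFit and eBayes, both directions tested, R 4.3.3) was run on log2(gene sum + 1) and on log2(transcript + 1) over all features with Benjamini-Hochberg adjustment. Log2 fold changes are on that scale, which understates changes of low genes. A call needed an adjusted p under 0.05, a 1.5-fold difference or more and a mean of 50 or more, following the study's methods. edgeR 4.0.16 (quasi-likelihood), DESeq2 1.42.0, other pseudocounts and filters, TMM scaling, a replicate block, a term for number 4 and leaving out libraries were the alternatives. The limma fit was tested on simulated counts, and the other steps were not. A ratio interval is exact, at 95%, and intervals and the limit of 3 counts for a count of 0 cover counting error only.

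Genes named with values per library were members past an unadjusted p of 0.05 or with labels that did not overlap (mean of at least 50), the 2 members with the highest TPM in each role, the 8 with the widest ratio between number 4 and the other libraries, transcripts past the same unadjusted p with a mean of at least 50, and Ngfr. Other values were named after they were seen. The members and lists were chosen with earlier results of these data known. Exon coordinates and junctions come from GENCODE models of GRCm38.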

Additional observations from a re-analysis of the deposited data

How the results depend on the processing

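No member gene and no member transcript was called under any alternative run (other pseudocounts, filters and scaling, the replicate block, the term for number 4, edgeR, DESeq2 and each left-out library, and, for genes, no minimum of mean and fold). For transcripts the minimum mean was kept, so a transcript under it could not be called. ENSMUST00000229495, at a mean of 43.7 normalized counts over all libraries, lay under it, although its DESeq2 adjusted p was 0.028. Its lack of a call in DESeq2 follows from that minimum and does not show how the result depends on the processing. Replicate numbers 1 and 4 occur under both labels, and the labels do not say that a number marks a litter or day. The deviations from the label means correlated at 0.256 for WT 1 with p75NTR-/- 1, 0.482 for WT 1 with p75NTR-/- 2 and 0.476 for WT 4 with p75NTR-/- 4, so WT 1 did not correlate best with its own number. With only 2 WT libraries, the deviations of WT 4 mirror those of WT 1. The value of WT 1 with p75NTR-/- 4 is therefore -0.476, and these correlations are not separate evidence on pairing. With the replicate block, 0 members had an unadjusted p under 0.05, in edgeR 1 and without both libraries numbered 4 there were 14. Leaving out single libraries gave 0 (without p75NTR-/- 1 or 2) to 8 (without WT 4, against 14.0% of all gene sums) such members. The median log2 fold change then lay between -0.043 (without WT 4) and 0.10, and the median ratio of number 4 to the others between -0.27 (without p75NTR-/- 1) and -0.081. Members without overlap numbered 10 without p75NTR-/- 1 or 2, 19 without p75NTR-/- 4, 22 without WT 1 and 30 without WT 4, against 19.6%, 20.9%, 46.1%, 40.8% and 62.9% of all gene sums, and 38 without both libraries numbered 4 (83.4%). Fewer libraries make overlap rarer by construction.

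Of the 26 members named by the rule, 15 changed the sign of their log2 fold change in some setting and 0 passed an adjusted p of 0.05 in any (smallest 0.150). With the replicate block Axin2 (-0.0081), Csnk1a1 (0.0057), Fzd4 (0.13) and Vangl2 (-0.038) reversed. With the term for number 4 Csnk1a1 (0.021), Fzd4 (0.10) and Vangl2 (-0.022) did, and without both libraries numbered 4 Csnk1a1 (0.037), Fzd4 (0.21), Sfrp2 (-0.18) and Vangl2 (-0.063). Fzd10 reversed in edgeR (-0.037) and DESeq2 (-0.037), and Ryk in DESeq2 (-0.0022). Leaving out single libraries gave these ranges: Apc -0.56 to 0.19, Axin2 -0.0081 to 0.38, Csnk1a1 -0.19 to 0.13, Fzd10 -0.66 to 0.92, Fzd3 -0.74 to 0.070, Fzd4 -0.53 to 0.45, Fzd9 -1.22 to 0.30, Nkd1 -1.11 to 0.30, Ryk -0.026 to 0.040, Sfrp2 -0.34 to 1.17, Tle1 -0.69 to 0.059, Tle4 -0.64 to 0.12, Vangl2 -0.23 to 0.36, Wnt5a -0.043 to 0.37 and Wnt7b -0.65 to 0.072. The cause of these moves was not tested.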
